A study of Mus musculus with 9 samples.

Results

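This section describes 10 of the 46072 genes listed for splenic monocytes of mice, namely the glucocorticoid receptor gene Nr3c1 and 9 genes known as glucocorticoid targets, which are Fkbp5, Klf9, Tsc22d3, Sgk1, Ddit4, Zbtb16, Txnip, Lpin1 and Errfi1. The members were chosen by symbol, with their levels and fold changes in these 3 groups already known, and were read from the table of expected counts and the table of FPKM values (a level per transcript length and per library size). Each symbol had a single row in both tables, all 10 were expressed, and all 10 passed the filter on low counts. Their mean FPKM lay between the 69.5th percentile (Errfi1) and the 98.3rd percentile (Tsc22d3) of the genes detected.

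The glucocorticoid receptor is a nuclear receptor that waits in the cytoplasm in a complex with the heat shock protein HSP90 and its co-chaperones. When corticosterone, the main glucocorticoid of mice, binds to it, the receptor moves to the nucleus and attaches to palindromic DNA elements, from which it activates some genes, and it also represses inflammatory genes through other transcription factors. In monocytes and macrophages it is known for restraining cytokine production, and several of its targets, such as Tsc22d3 and Fkbp5, are widely used as readouts of glucocorticoid exposure. Most of these genes also answer to other signals, including insulin, nutrients and cell stress. No hormone was measured in the files analysed here.

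Monocytes came from female C57BL/6 mice of 8–10 weeks in 3 groups of 3 (Con, Van and VanLip). Water was gavaged for 6 days in Con, and vancomycin in Van, as 2 doses of 1 mg on each day (2 mg per mouse per day). VanLip mice received the same vancomycin and afterwards L654, a bacterial lipid that activates Toll-like receptor 2, injected retro-orbitally on days 7, 9 and 11. After gavage the mice were rested for 8 days (6–8 days in the labels). The monocytes were purified by negative selection, and RNA was taken without stimulation in culture. The labels give an injection for VanLip mice only, whereas the general protocol of the study names PBS as the vehicle control, and these sources do not settle whether the sequenced Con and Van mice were injected. If they were not, the lipid and its injection cannot be told apart.

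Total expected counts were 43070361 to 61383806 per library over Con and Van, and 170503470 to 184720704 over VanLip. These counts assume 75 bases per read, so their totals overstate the difference in depth. As fragments (read pairs), at the read lengths inferred below, the totals were 16151385 to 23018927 over Con and Van. Over VanLip they were 42625868 to 46180176. The low counts corresponded to reads of 100 bases in each Con and Van library and of 150 bases in each VanLip library, although the methods name a single read length for the series. This read length was inferred from the counts alone. Treatment with L654 and the difference in depth and inferred read length cannot be told apart in any comparison with VanLip. Monocyte markers (Lyz2, Csf1r, Ly6c2 and 5 others) summed to 8033 to 11057 FPKM over all 9 libraries. The neutrophil marker Ly6g was listed at 0 in every library. The sum of 6 neutrophil genes, Ly6g among them, was 4.01 to 11.3 FPKM in Con, 1.88 to 10.5 in Van and 2.99 to 4.37 in VanLip. The sum of 5 erythroid genes was 56.9 to 114.6 FPKM in Con, 189.1 to 430.1 in Van and 155.2 to 640.4 in VanLip, and that of 6 B cell genes was 335 to 393, 251 to 276 and 257 to 320.2. The part of these other cells in the results below was not tested, and fewer cells of a type and less RNA per cell cannot be told apart in bulk RNA.

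The receptor binds an inverted repeat in which AGAACA and TGTTCT are separated by any 3 bases, and the start regions of the members were searched for these letters on both strands. RefSeq start regions (GRCm38.p6, 250 bases before to 50 after the transcription start) were found for 8 of the 10 members, with 16 regions in all, and none was found for Nr3c1 or Zbtb16. The sequences below are shown because they carry either the whole element, a single arm of it (AGAACA or TGTTCT), or the element of another factor named for these genes, the E-box CACGTG or the forkhead site GTAAACA, in capitals. Each is written in the direction of its gene.
Sgk1, whole element, 189 to 175 bases before the start, chr10:21993694-21993722, plus strand: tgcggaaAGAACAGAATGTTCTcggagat
Tsc22d3, single arm, 185 to 180 bases before the start, chrX:140600695-140600714, minus strand: ttcgacaTGTTCTaagttct
Lpin1, single arm, 163 to 158 bases before the start, chr12:16611117-16611136, minus strand: gaaccagTGTTCTgtgagaa
Fkbp5, E-box, 169 to 164 bases before the start, chr17:28486306-28486325, minus strand: ggccagaCACGTGggcagcg
Klf9, forkhead, 100 to 94 bases before the start, chr19:23141119-23141139, plus strand: ggagaaaGTAAACAgagttga
Txnip, forkhead, 121 to 115 bases before the start, chr3:96557829-96557849, plus strand: aggcctgGTAAACAagggcca

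The whole element was present in 1 start region of Sgk1 and in 3 of all 32851 start regions searched (0.00913%). A single arm was far more common, in 19% of all start regions, the E-box was in 7.15% and the forkhead site in 3.65%. The single arm was also present in 3 start regions of Sgk1, and Sgk1 shared the E-box with Fkbp5. The start regions found for Ddit4 and Errfi1 held none of these letters. A match describes these letters only, and the elements that regulate such genes often lie far outside a window of this size.

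Fkbp5, Klf9 and Zbtb16 were higher after vancomycin, and after vancomycin with L654 5 members (Klf9, Tsc22d3, Ddit4, Lpin1 and Errfi1) were lower than in both other groups. With DESeq2 and an adjusted p of 0.05 or under as the call, 3 of the 10 members were called for Van against Con, namely Fkbp5, Klf9 and Zbtb16, all higher in Van, where 4.34% of all genes tested were called and 2.27% were called higher. For VanLip against Con 7 members were called, all lower in VanLip, where 6.67% of the genes tested were called and 3.69% were called lower. For VanLip against Van 8 members were called, all lower in VanLip, where 9.86% were called and 5.28% were called lower. The median log2 fold change of the 10 members was 0.27, −0.33 and −0.56 in the 3 comparisons, beside −0.01, 0.01 and 0.01 over all genes tested. These are descriptions, since the members were chosen with earlier results of these data known and each comparison shares a group with the others.

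The single libraries were also compared. By normalized counts, every Van library lay above every Con library in 6 members and below in 1, where 12.7% and 11.4% of all genes (those with 50 or more normalized counts on average) were separated in these directions. Every VanLip library lay below every Con library in 7 members, where 11.3% of genes were so separated, and below every Van library in 8, where 14.4% were. No member had all VanLip libraries above those of either other group.

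**Figure D1:**
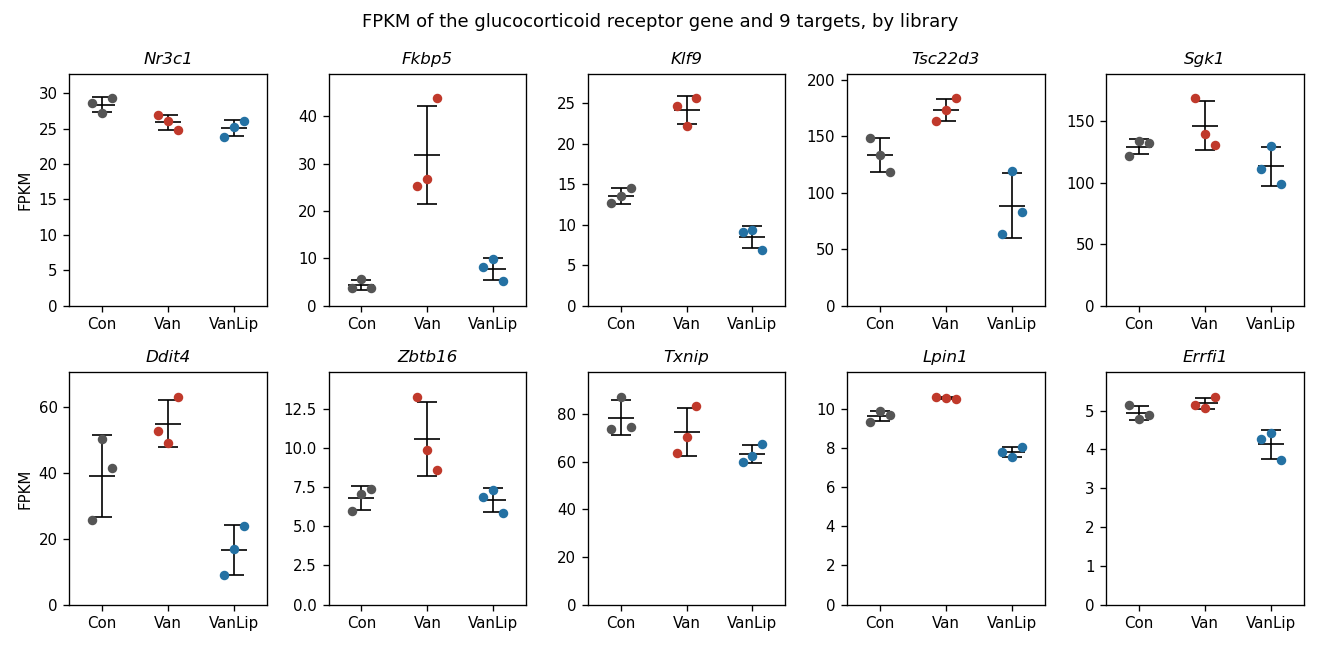
FPKM (vertical axis, linear from 0, a separate scale per gene) of the 10 genes in each library of Con, Van and VanLip, with points for replicates 1 to 3 from left to right and bars for the mean and SD of 3 libraries. Fkbp5 and Klf9 were high in all 3 Van libraries, Ddit4 and Lpin1 were low in all 3 VanLip libraries, and Nr3c1 stayed between 23.8 and 29.3 FPKM in all 9.

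The receptor gene itself moved little. Nr3c1 (ENSMUSG00000024431, GRCm38 chromosome 18, 39410545 to 39519421) encodes the glucocorticoid receptor, and its level was 28.7, 27.3 and 29.3 FPKM in Con, 26.9, 26.0 and 24.7 FPKM in Van, and 23.8, 25.2 and 26.1 FPKM in VanLip. The Con libraries were the 3 highest, and Van and VanLip overlapped. Van was 0.894-fold of Con (95% interval 0.821 to 0.974, DESeq2 adjusted p = 0.140), which did not pass. VanLip was 0.862-fold of Con (log2 fold change −0.21, SE 0.06, DESeq2 adjusted p = 0.0158), which passed. That call was lost when counts were corrected for GC content and transcript length (log2 fold change −0.07, DESeq2 adjusted p = 0.664), with the edgeR quasi-likelihood test (adjusted p = 0.1005), in all 3 limma settings, in a DESeq2 fit of only these 2 groups (adjusted p = 0.0639), and without Con replicate 1 or 3, Van replicate 2, or VanLip replicate 1 or 2. VanLip was 0.964-fold of Van (95% interval 0.885 to 1.05), which did not pass.

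Fkbp5 had the largest fold change of the 10 in both comparisons with Van, while between VanLip and Con that of Ddit4 was larger. It encodes FKBP51, a co-chaperone that sits in the receptor complex, lowers hormone binding and is itself induced by glucocorticoids, closing a short negative feedback loop. Fkbp5 (ENSMUSG00000024222, chromosome 17, 28399094 to 28517527) was at 3.79, 5.64 and 3.85 FPKM in Con, at 25.2, 26.7 and 43.8 FPKM in Van, and at 8.24, 9.89 and 5.13 FPKM in VanLip. All Van libraries stood far above the other 6, with Van replicate 3 the highest, while VanLip and Con overlapped by VanLip replicate 3. Van was 7.15-fold higher than Con (95% interval 4.45 to 11.5, log2 fold change 2.84, SE 0.35, DESeq2 adjusted p = 6.21e-13). VanLip was 0.242-fold of Van (95% interval 0.151 to 0.388, DESeq2 adjusted p = 3.59e-07). The level in VanLip was 1.73-fold that in Con (95% interval 1.08 to 2.78), which did not pass (DESeq2 adjusted p = 0.172) but did without Van replicate 3 (0.00908), without VanLip replicate 3 (0.0439) and in a DESeq2 fit of only these 2 groups (adjusted p = 0.0197). Fkbp5 was the lowest of the 10 genes in Con and was in the fifth place in Van, where it overlapped Nr3c1.

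Klf9 and Zbtb16 are the transcription factors among the targets. Klf9 encodes a Krüppel-like zinc finger factor that is induced rapidly by glucocorticoids in many tissues. Klf9 (ENSMUSG00000033863, chromosome 19, 23141226 to 23168134) was at 12.6, 13.5 and 14.6 FPKM in Con, at 24.7, 22.2 and 25.6 FPKM in Van, and at 9.05, 9.41 and 6.90 FPKM in VanLip. The 3 groups did not overlap, with Van highest, Con between and VanLip lowest. Van was 1.77-fold higher than Con (log2 fold change 0.82, SE 0.12, DESeq2 adjusted p = 2.63e-08). This call was lost with limma on log2 (FPKM + 1) (adjusted p = 0.0569) and on log2 (FPKM + 0.1) (0.0933). The call of Klf9 for VanLip against Con was lost in 2 of 12 alternatives, limma on log2 (FPKM + 1) among them. VanLip was 0.348-fold of Van (log2 fold change −1.52, SE 0.12, DESeq2 adjusted p = 1.24e-31), the lowest adjusted p among the members in any comparison, and 0.615-fold of Con (log2 fold change −0.70, SE 0.12, DESeq2 adjusted p = 2.87e-06).

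Zbtb16 encodes PLZF, a zinc finger repressor that glucocorticoids induce in several tissues and that also marks natural killer T cells and some innate lymphoid cells. Zbtb16 (ENSMUSG00000066687, chromosome 9, 48654297 to 48836222) was at 5.95, 7.10 and 7.42 FPKM in Con, at 13.3, 9.86 and 8.64 FPKM in Van, and at 6.87, 7.30 and 5.84 FPKM in VanLip. All Van libraries lay above the other 6, and Con and VanLip covered nearly the same range. Van was 1.54-fold higher than Con (log2 fold change 0.63, SE 0.16, DESeq2 adjusted p = 0.00477), a call that was lost with edgeR (adjusted p = 0.0977), with limma on FPKM and without Con replicate 1 (0.0615). VanLip was 0.626-fold of Van (log2 fold change −0.67, SE 0.16, DESeq2 adjusted p = 0.000669) and 0.966-fold of Con (95% interval 0.779 to 1.20). The call against Van was lost in 3 of 12 alternatives, limma on log2 (FPKM + 1) among them. The summed level of 8 genes of natural killer, natural killer T and innate lymphoid cells was 1.84 to 3.00 FPKM in Con, 1.21 to 1.63 in Van and 1.33 to 1.97 in VanLip, and the part of these cells in the level of Zbtb16 was not tested.

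Tsc22d3 and Sgk1 were the most abundant members. Tsc22d3 encodes GILZ, a leucine zipper protein that carries part of the anti-inflammatory action of glucocorticoids in macrophages. Tsc22d3 (ENSMUSG00000031431, chromosome X, 140539528 to 140600659) was at 149, 133 and 118 FPKM in Con, at 164, 174 and 184 FPKM in Van, and at 63.2, 119.6 and 83.0 FPKM in VanLip. Each Van library lay above all Con libraries, and VanLip replicate 2 reached the lowest Con level in FPKM although not in normalized counts. The rise in Van of 1.27-fold (95% interval 0.996 to 1.61) did not pass (DESeq2 adjusted p = 0.346), but it did in a DESeq2 fit of only Con and Van (adjusted p = 0.00183) and without VanLip replicate 2 (0.0479). VanLip was 0.517-fold of Van (log2 fold change −0.95, SE 0.18, DESeq2 adjusted p = 5.14e-06) and 0.655-fold of Con (log2 fold change −0.61, SE 0.18, DESeq2 adjusted p = 0.0148). The call against Con was lost without Con replicate 1 (0.126), Con replicate 2 (0.0628) or VanLip replicate 3 (0.209), with edgeR (adjusted p = 0.136) and in all 3 limma settings.

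Sgk1 encodes serum- and glucocorticoid-regulated kinase 1, which acts downstream of phosphoinositide 3-kinase and regulates ion channels and FOXO factors, and its start region is the one that held the whole receptor element shown above. Sgk1 (ENSMUSG00000019970, chromosome 10, 21882184 to 21999903) was at 122, 134 and 132 FPKM in Con, at 168, 139.9 and 130.3 FPKM in Van, and at 111, 130.1 and 98.8 FPKM in VanLip. In FPKM the Van and Con libraries overlapped, Van replicate 1 was the highest, and VanLip replicate 2 came close to Van replicate 3. Van was 1.15-fold of Con (95% interval 0.982 to 1.34, DESeq2 adjusted p = 0.437) and VanLip 0.895-fold of Con (95% interval 0.765 to 1.05), neither of which passed. VanLip was 0.780-fold of Van (log2 fold change −0.36, SE 0.12, DESeq2 adjusted p = 0.0244), but the call was lost without Van replicate 1 (0.191), VanLip replicate 1 (0.0618) or VanLip replicate 3 (0.112), with edgeR (adjusted p = 0.0966), in all 3 limma settings, and in a DESeq2 fit of only these 2 groups (adjusted p = 0.0627).

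The other 4 targets act in energy, redox and growth signaling. Ddit4 encodes REDD1, an inhibitor of the growth kinase complex mTORC1 that is induced by glucocorticoids and by hypoxia or energy stress. Ddit4 (ENSMUSG00000020108, chromosome 10, 59949669 to 59951834) was at 25.5, 50.03 and 41.5 FPKM in Con, at 52.7, 49.0 and 62.8 FPKM in Van, and at 8.89, 16.9 and 23.8 FPKM in VanLip. All VanLip libraries lay below the other 6, Con replicate 1 was close above them, and Con and Van overlapped. VanLip was 0.299-fold of Van (95% interval 0.177 to 0.504, DESeq2 adjusted p = 0.000245) and 0.418-fold of Con (95% interval 0.248 to 0.705, DESeq2 adjusted p = 0.0230). The call against Con was lost without Con replicate 2 (0.185) or 3 (0.128), or without VanLip replicate 1 (0.0506) or 2 (0.117), with edgeR (adjusted p = 0.0902), in all 3 limma settings, and in a DESeq2 fit of only these 2 groups (adjusted p = 0.0979). Van was 1.40-fold of Con with a wide interval (0.828 to 2.36, DESeq2 adjusted p = 0.651).

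Lpin1 encodes lipin-1, a phosphatidic acid phosphatase that also coactivates genes of fatty acid oxidation. Lpin1 (ENSMUSG00000020593, chromosome 12, 16535669 to 16610966) was at 9.35, 9.87 and 9.67 FPKM in Con, at 10.6, 10.6 and 10.5 FPKM in Van, and at 7.81, 7.53 and 8.05 FPKM in VanLip. The groups did not overlap, and the spread within each was the smallest of the members relative to its mean in Van. VanLip was 0.734-fold of Van (log2 fold change −0.45, SE 0.06, DESeq2 adjusted p = 3.42e-11) and 0.798-fold of Con (log2 fold change −0.33, SE 0.06, DESeq2 adjusted p = 1.05e-05), whereas Van was 1.09-fold of Con (95% interval 1.00 to 1.18, DESeq2 adjusted p = 0.338).

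Errfi1 encodes MIG6, a feedback inhibitor of the epidermal growth factor receptor. Errfi1 (ENSMUSG00000028967, chromosome 4, 150853919 to 150868892) was at 5.15, 4.80 and 4.89 FPKM in Con, at 5.15, 5.06 and 5.35 FPKM in Van, and at 4.27, 4.42 and 3.72 FPKM in VanLip. Con and Van overlapped, and all VanLip libraries were lower. VanLip was 0.775-fold of Con (log2 fold change −0.37, SE 0.09, DESeq2 adjusted p = 0.00236) and 0.775-fold of Van (log2 fold change −0.37, SE 0.09, DESeq2 adjusted p = 0.00135). With the VanLip fragments thinned to the depth of the other libraries both calls were lost, at log2 fold changes of −0.25 and −0.25 (DESeq2 adjusted p = 0.242 and 0.177). The call against Con was also lost with edgeR (adjusted p = 0.0541) and in all 3 limma settings, and that against Van in the 2 limma settings without a filter on FPKM.

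Txnip encodes thioredoxin-interacting protein, an arrestin-like inhibitor of thioredoxin and of glucose uptake. Txnip (ENSMUSG00000038393, chromosome 3, 96557957 to 96561883) was at 73.9, 87.2 and 74.9 FPKM in Con, at 63.6, 70.5 and 83.3 FPKM in Van, and at 60.1, 62.5 and 67.4 FPKM in VanLip. It was the only target whose mean FPKM was lower in Van than in Con, and those groups overlapped (0.911-fold, 95% interval 0.782 to 1.06, DESeq2 adjusted p = 0.685). VanLip was 0.793-fold of Con (log2 fold change −0.33, SE 0.11, DESeq2 adjusted p = 0.0476), a call close to the threshold that was lost without any 1 of the Con libraries, Van replicate 2, VanLip replicate 1 or VanLip replicate 2. It was also lost in 8 of 12 alternatives, namely edgeR (adjusted p = 0.152), TMM library sizes (0.0875), counts as fragments (0.0537), thinned VanLip fragments (0.0725), no independent filtering (0.0708) and all 3 limma settings. VanLip was 0.870-fold of Van (95% interval 0.747 to 1.01), which did not pass. Txnip shares exonic bases with the antisense gene Gm15441, and no other member shares exonic bases with another gene, so the level of Txnip is the one that depends on strand-aware counting.

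**Figure D2:**
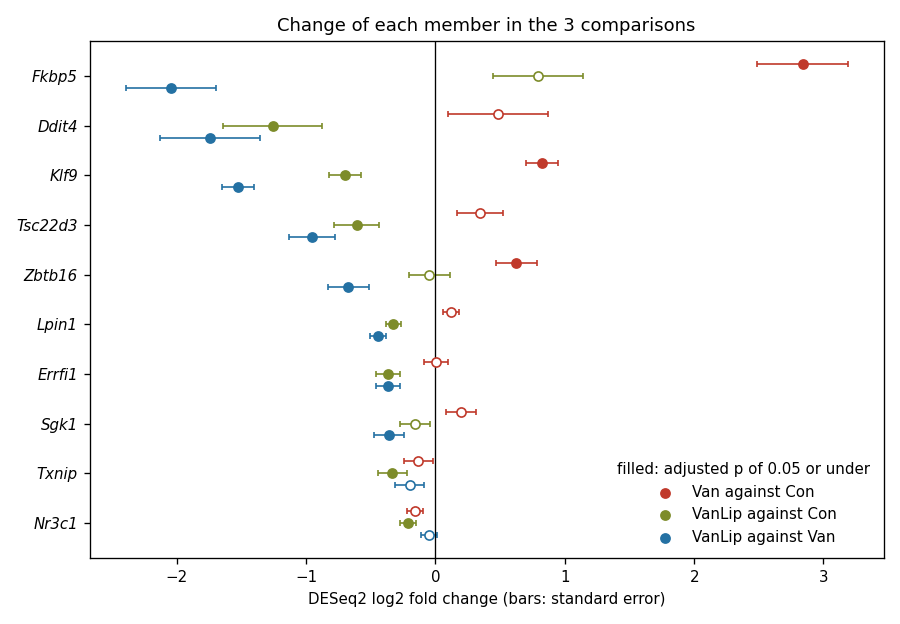
DESeq2 log2 fold change (horizontal axis) of each member in Van against Con, VanLip against Con and VanLip against Van, with bars for the standard error and filled points for an adjusted p of 0.05 or under. All 10 points of VanLip against Van lie below 0, with 8 filled, and the 3 filled points of Van against Con are Fkbp5, Klf9 and Zbtb16.

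Both the number of members called and the share of all genes called were lower with the other tests. With edgeR 2 members were called for Van against Con (Fkbp5 and Klf9), 2 for VanLip against Con (Klf9 and Lpin1) and 7 for VanLip against Van, where 1.21%, 1.78% and 5.07% of all genes tested were called. With limma on log2 (FPKM + 1) the counts were 1 (Fkbp5), 1 (Lpin1) and 3 (Fkbp5, Klf9 and Lpin1), where 0.352%, 0.908% and 2.64% of all genes were called. Leaving out 1 library gave 2 to 4, 4 to 8 and 7 to 8 members, where 2.37% to 6.48%, 3.39% to 8.15% and 6.23% to 10.3% of all genes were called. The count for VanLip against Con was 4 without Con replicate 1, 2 or 3 and without VanLip replicate 1 or 2. Fkbp5, Klf9 and Lpin1 were called for VanLip against Van in all 12 alternatives and in all 9 fits with a library left out.

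**Figure D3:**
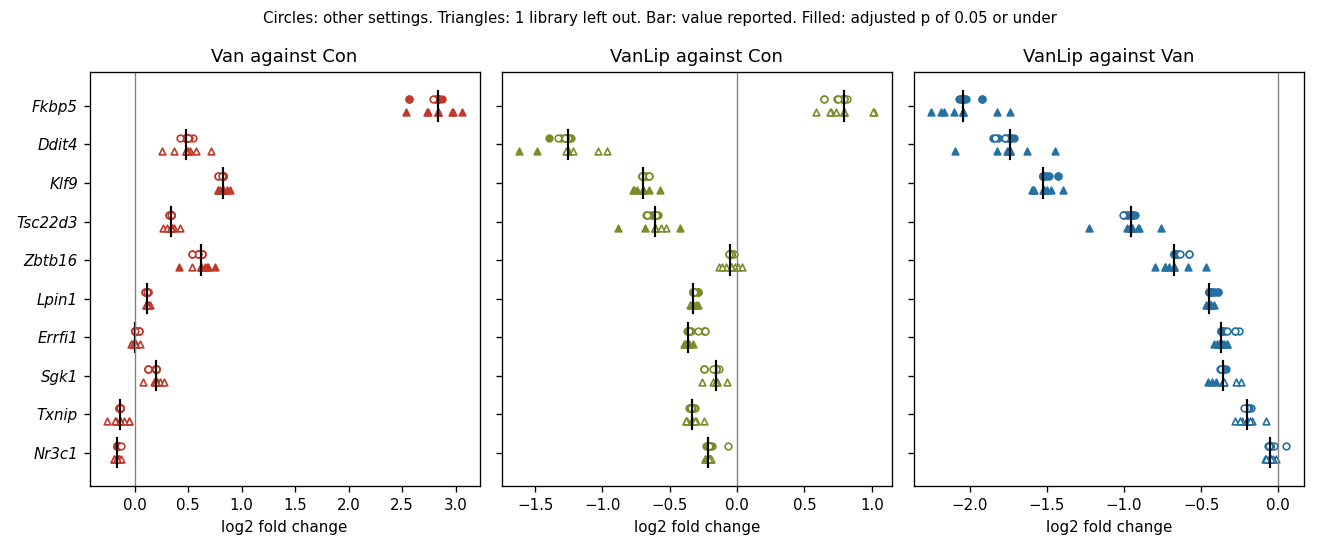
Log2 fold change (horizontal axis) of each member in the 3 comparisons, with a bar for the DESeq2 value reported, circles for the other settings, triangles for fits with 1 library left out and filled symbols for an adjusted p of 0.05 or under. The symbols of Fkbp5, Klf9, Tsc22d3, Ddit4, Zbtb16 and Lpin1 stay below 0 for VanLip against Van, whereas those of Errfi1 for Van against Con lie on both sides of 0.

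Further genes known to answer to glucocorticoids were read in the same fit. None of another 26 such targets was called for Van against Con by DESeq2 (25 had an adjusted p, and 4 had an unadjusted p under 0.05), by edgeR (4 unadjusted) or by limma on log2 (FPKM + 1) (3 unadjusted). These tests called 4.34%, 1.21% and 0.352% of all genes. A DESeq2 fit of only Con and Van called 3 of the targets, where 9.23% of all genes were called. Angptl4, an inhibitor of lipoprotein lipase, had a log2 fold change of 1.05 (SE 0.41, DESeq2 adjusted p = 0.139), and the median over the list was 0.10. For VanLip against Con 3 of the 25 were called, all lower (3.69% of all genes tested were called lower), which were Cxcr4, a chemokine receptor (log2 fold change −1.32), Per1, a circadian clock repressor (−0.78), and Il7r, the interleukin 7 receptor chain (−0.70). For VanLip against Van 5 of the 25 were called, all lower (5.28% of all genes tested), namely Per1 (−1.06), Cxcr4 (−1.28), Irs2, an adaptor of insulin signaling (−0.42), Nfkbia, the inhibitor of NF-κB (−0.40), and Cdkn1a, a cell cycle inhibitor (−0.46). With edgeR only Per1 and Cxcr4 were called in these 2 comparisons. The median of the list was −0.11 and −0.25. Well-known targets that were not called in any comparison included Dusp1 and Zfp36, which damp inflammatory signaling, Cebpd and Mt2.

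Several chaperones that hold the receptor in its hormone-binding state were higher in Van than in either other group. Of 11 such genes 8 rose in Van against Con and none fell (median log2 fold change 0.52, beside 2.27% of all genes called higher), and 9 were lower in VanLip than in Van (median −0.63, beside 5.28% called lower), while only Dnaja1 differed between VanLip and Con (−0.44). Stip1, which joins HSP70 to HSP90, was at 22.4 ± 1.46 FPKM in Con, 45.1 ± 3.29 FPKM in Van and 23.7 ± 3.79 FPKM in VanLip (mean ± SD of 3 mice), with a log2 fold change of 1.00 in Van (SE 0.12, DESeq2 adjusted p = 1.81e-14). Dnaja1, an HSP40 co-chaperone, rose by a log2 value of 0.67 and Hspa8, the constitutive HSP70, by 0.60. Hsp90aa1, an HSP90 gene, rose by 0.63 in Van and had a log2 fold change of −0.86 for VanLip against Van. Fkbp4 encodes FKBP52, the co-chaperone that competes with FKBP51 and favors hormone binding, and its log2 fold change in Van was 0.83 (SE 0.10, DESeq2 adjusted p = 3.53e-13), less than the 2.84 of Fkbp5. These chaperones serve many proteins besides the receptor. With edgeR 7 were higher in Van (0.765% of all genes tested) and 8 lower in VanLip than in Van (2.7%), and with limma on log2 (FPKM + 1) these counts were 5 (0.268%) and 7 (1.46%).

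**Figure D4:**
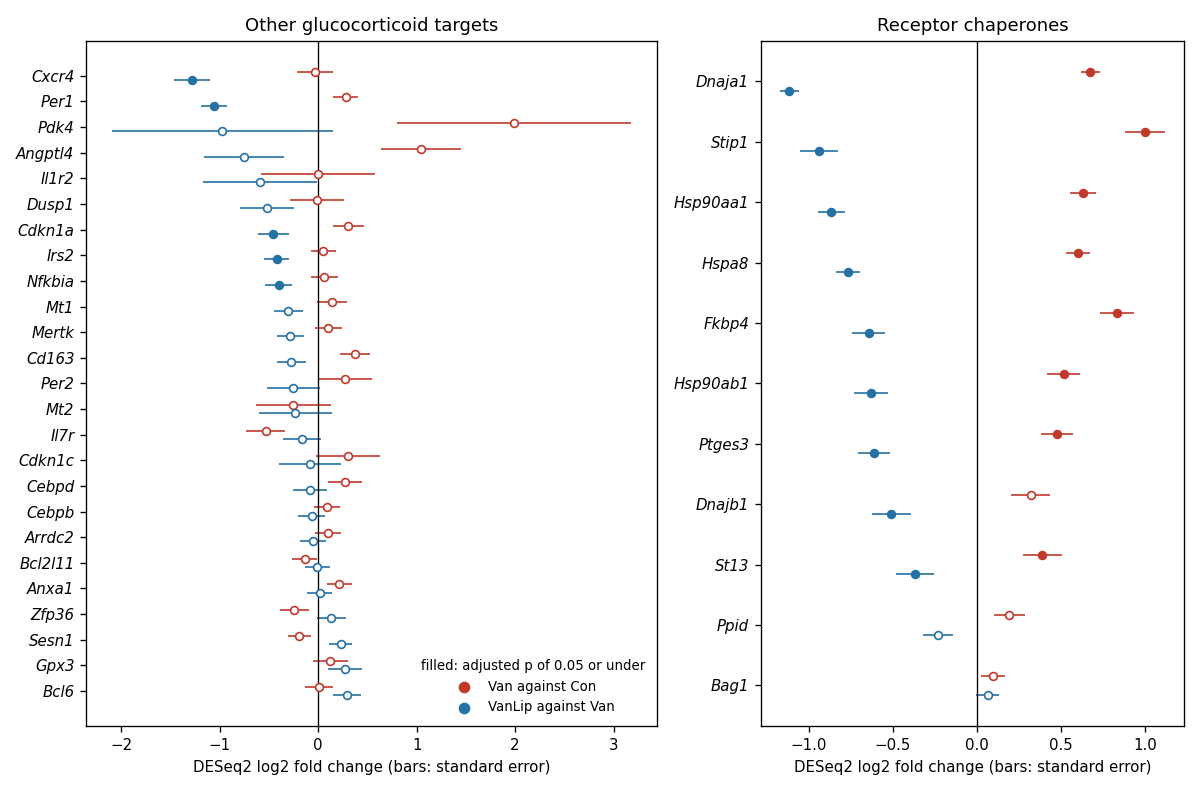
DESeq2 log2 fold change (horizontal axis) of 25 other glucocorticoid targets (left) and 11 receptor chaperones (right) for Van against Con and VanLip against Van, with bars for the standard error and filled points for an adjusted p of 0.05 or under. No target is filled for Van against Con, where 8 chaperones are, and 5 targets and 9 chaperones are filled for VanLip against Van.

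Few coactivators and corepressors of the receptor were called. Of 11 such genes none was called for Van against Con by DESeq2 (2 with an unadjusted p under 0.05), by edgeR (1 unadjusted) or by limma on log2 (FPKM + 1) (3 unadjusted). These tests called 4.34%, 1.21% and 0.352% of all genes, so none among 11 is near those shares. Only Med1, a subunit of the Mediator complex, was called lower in VanLip than in Con (log2 fold change −0.19, beside 3.69% of all genes called lower). That call was lost with edgeR, with limma on log2 (FPKM + 1) and after the correction for GC content and length. The acetyltransferase genes Crebbp (−0.31) and Ep300 (−0.25) were the 2 called lower in VanLip than in Van (beside 5.28% called lower). Genes that set the supply of active hormone were led by Abcb1a, an efflux pump that exports glucocorticoids among many other compounds. Abcb1a was at 1.72, 2.496 and 1.06 FPKM on average in Con, Van and VanLip, with log2 fold changes of 0.55 for Van against Con (DESeq2 adjusted p = 0.0215), −0.68 between VanLip and Con (0.000957) and −1.23 between VanLip and Van (DESeq2 adjusted p = 1.61e-12), of which edgeR called the last 2 and limma on log2 (FPKM + 1) only the last. Hsd11b1, which regenerates active corticosterone inside cells, was at 15.9, 16.5 and 14.3 FPKM and was not called. Nr3c2, the mineralocorticoid receptor, which binds the same hormone, was at 0.134 FPKM or under on average in each group.

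Relatives of the members within their gene families were examined too. Klf13, another Krüppel-like factor, had a log2 fold change of 0.43 for Van against Con (DESeq2 adjusted p = 0.000126) and −0.49 for VanLip against Van. Arrdc3, an arrestin-like relative of Txnip, was lower in VanLip, with log2 fold changes of −0.92 against Con and −1.11 against Van. Lpin2 was lower in VanLip than in Con (−0.41), a call lost with edgeR and with limma on log2 (FPKM + 1), and the rise of Klf13 in Van was lost with that limma setting. Tsc22d1, Tsc22d2, Tsc22d4 and Sgk3 were not called in any comparison. Of 11 relatives, 8 had an adjusted p, and Sgk2 was listed at 0 in every library.

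Other regulators that share targets with the receptor were mixed. Mlxip, a glucose-sensing factor that activates Txnip and Arrdc4, rose by a log2 value of 0.42 in Van and was lower in VanLip against Van (−0.70) and against Con (−0.28). Its rise in Van was lost with limma on log2 (FPKM + 1), and its call for VanLip against Con with edgeR and that limma setting. Its relative Mlxipl went the other way, at 1.28 FPKM on average in Con, 0.154 in Van and 0.867 in VanLip, with log2 fold changes of −2.77 for Van against Con (DESeq2 adjusted p = 0.000100) and 2.13 for VanLip against Van (DESeq2 adjusted p = 0.00284), neither of which was called by edgeR. Foxo1, a forkhead factor, was lower in VanLip than in Con (−0.28) and Van (−0.17), but neither call was kept after the correction for GC content and length, nor was that of Mlxip against Con. Dbp, a clock output factor, had a log2 fold change of −0.78 for Van against Con, a call lost with edgeR and with limma on log2 (FPKM + 1). In all, 3 of these 12 genes were called for Van against Con (4.34% of all genes tested), 2 between VanLip and Con (6.67%) and 3 between VanLip and Van (9.86%). With edgeR 1 was called in each, beside 1.21%, 1.78% and 5.07% of all genes.

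Some of the genes that respond within minutes to handling of cells differed in VanLip. None of 11 such genes was called for Van against Con by DESeq2 (1 with an unadjusted p under 0.05), edgeR (0 unadjusted) or limma on log2 (FPKM + 1) (0 unadjusted). In that comparison these tests called 4.34%, 1.21% and 0.352% of all genes, so none among 11 is near those shares. In VanLip, Hspa1a and Hspa1b, the inducible HSP70 genes, were at 4.56 and 4.13 FPKM on average, beside 49.5 and 56.3 in Con and 53.3 and 65.1 in Van. These were log2 fold changes of −3.46 and −3.79 against Con (DESeq2 adjusted p = 4.08e-13 and 1.20e-13). Atf3, a stress-induced factor, was lower than in Con (log2 fold change −0.61), as was Egr1 (−0.59, lost with edgeR and limma), so that 4 of the 11 were called, all lower (3.69% of all genes tested were called lower). Fos (−0.20), Nr4a1 (−0.06), Ier2 (0.33) and Ier3 (0.07) were among the 7 that did not pass. Against Van, Junb was higher in VanLip (0.33, lost with edgeR and limma) and 5 of the 11 were lower (5.28% of all genes tested), of which edgeR and limma on log2 (FPKM + 1) each called 4, without Jun. Ddit4, Klf9, Tsc22d3 and Lpin1 were lower in VanLip as well, and the part of these genes, or of handling, in that was not tested.

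Ordered by FPKM within a group, Tsc22d3 and Sgk1 came first and overlapped in Con, Van and VanLip, followed by Txnip. In Con the neighbors Ddit4 and Nr3c1 overlapped, as did Errfi1 and Fkbp5, and all other neighbors were apart. In VanLip most of the lower genes overlapped with the next, from Ddit4 through Klf9, Lpin1 and Fkbp5 to Zbtb16, with Errfi1 lowest.

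The genes most like Nr3c1 and Fkbp5 were ranked by Pearson correlation over the 9 libraries, which share their group differences and depth, among 13502 other genes. For Nr3c1 they were Nf1 (r = 0.973), Ddx6 (0.972), Il7r (0.958), Ap1s3 (0.954) and Cep192 (0.949). For Fkbp5 they were Mst1r, a receptor tyrosine kinase (r = 0.974), Ssh3 (0.968), Adpgk (0.966), Fbxl19 (0.965) and Zfp276 (0.962). Mst1r had a log2 fold change of 1.43 for Van against Con (DESeq2 adjusted p = 6.30e-10) and −1.27 for VanLip against Van. Among the members, Zbtb16 was in place 526 (r = 0.764) and Klf9 in place 703 (r = 0.729) in likeness to Fkbp5. Nr3c1 was in place 11894 (r = −0.56).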

How the data were processed

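The authors isolated splenic monocytes with a negative selection kit, prepared stranded libraries of polyadenylated RNA, aligned paired reads to GRCm38 with HISAT2 2.2.1 and estimated transcripts with StringTie 2.1.3, and the submitters' processing notes also name SAMtools 1.9 and DESeq2 1.38.3. The authors deposited expected counts per gene (from tximport, not normalized) and FPKM values. The annotation release is not given in the sources used here, so coordinates were taken from GENCODE M21 by identifier (99% of detected genes matched). Groups and replicate numbers came from the sample titles, with 3 mice per group.

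Expected counts were rounded and tested with the DESeq2 1.42.0 Wald test in R 4.3.3, with all 9 libraries in 1 fit, group as the only term and Benjamini-Hochberg adjustment over all genes. The counts tested exceeded the inferred number of fragments in every library. Intervals of folds are 95% Wald intervals. Tests were two-sided. The DESeq2 and edgeR tests were also run on simulated counts, whereas limma and the other alternatives were not. Levels are FPKM. Alternatives were edgeR 4.0.16, TMM library sizes, filters, fits of 2 groups, a replicate block, counts expressed as fragments, VanLip thinned to the depth of the others, limma 3.58.1 on log2 (FPKM + 1) or (FPKM + 0.1), and each library left out. The correction for GC content and length was chosen after seeing the data. The members and lists (other targets, chaperones, cofactors, hormone supply, relatives, regulators, handling genes and cell type markers) were chosen with earlier results of these data known. Named genes were the members, genes most like Nr3c1 and Fkbp5, and up to 3 called genes per list and direction, with lowest adjusted p. Other genes named from a list (Nfkbia, Cdkn1a, Egr1, Angptl4, Hsp90aa1, Fkbp4 and those said not to be called, for example) were chosen after their values were seen.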

Additional observations from a re-analysis of the deposited data

How the results depend on the processing

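For Van against Con, where DESeq2 called 3 members, limma called 1 on log2 (FPKM + 1) and 0 on log2 (FPKM + 0.1) (4 with an unadjusted p under 0.05), where these settings called 0.352% and 0.0651% of all genes. For VanLip against Con (7 members) edgeR called 2 and limma 1 with a pseudocount of 1, 0 with 0.1 (8 unadjusted) and 2 at a mean FPKM of at least 1, where these called 1.78%, 0.908%, 0.643% and 2.89% of all genes. For VanLip against Van (8 members) limma called 3 with either pseudocount (2.64% and 1.98% of all genes). Without 1 library these counts were 2 to 4, 4 to 8 and 7 to 8, where 2.37% to 6.48%, 3.39% to 8.15% and 6.23% to 10.3% of all genes were called. Other targets numbered 3 for Van against Con in a fit of the 2 groups alone (9.23% of all genes called) and 0 to 2 without 1 library (2.37% to 6.48%). For VanLip against Con they numbered 1 and 0 (5 unadjusted) in limma with pseudocounts of 1 and 0.1 (0.908% and 0.643% of all genes), and 2 to 5 without 1 library (3.39% to 8.15%). For VanLip against Van edgeR called 2 (5.07% of all genes), and TMM library sizes and no independent filtering 3 each (10.4% and 6.12%). For the same comparison limma called 2 in each of its settings (1.98% to 7.08%), and 2 to 7 were called without 1 library (6.23% to 10.3%).

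A few values near 0 changed sign. Errfi1 for Van against Con was −0.00023 with the replicate block and lay between −0.0331 and 0.0516 with a library left out, below 0 without Con replicate 2 (−0.0168), Van replicate 1 and Van replicate 3 (−0.0154). Zbtb16 for VanLip against Con lay between −0.133 and 0.0378, above 0 without Con replicate 3 (0.0034) and VanLip replicate 3. Nr3c1 for VanLip against Van was 0.0518 after the correction for GC content and length. Elsewhere directions held. The cause of these changes was not tested.

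Same-numbered libraries share only a number (correlations of their deviations −0.06 to 0.12). With the replicate block 3, 6 and 8 members were called in the 3 comparisons, where 3.66%, 4.5% and 6.71% of all genes were called. Nr3c1 was not among the members called for VanLip against Con (−0.213, DESeq2 adjusted p = 0.0828). With TMM library sizes the split of all genes called was 657 higher and 500 lower for VanLip against Con, beside 494 and 610, and 1013 and 809 for VanLip against Van, beside 826 and 951.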

Other observations

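The marker lists of other cells gave the following values. Of the 8 monocyte markers, Ccr2, the receptor for the chemokine CCL2, was lower in Van than in Con (log2 fold change −0.83, DESeq2 adjusted p = 0.000480) and higher in VanLip than in Van (1.04), and Ly6c2 (0.39) and Cx3cr1 (0.43) were also higher in VanLip than in Van. The call of Ccr2 in Van against Con and that of Ly6c2 were lost with edgeR and with limma on log2 (FPKM + 1), and that of Cx3cr1 with limma. The erythroid genes Hba-a1, Hbb-bs and Alas2 were higher in Van than in Con (log2 fold changes 1.76, 1.88 and 2.09), and VanLip exceeded Con in all 5 erythroid genes, with no difference called between VanLip and Van by DESeq2 (0 with an unadjusted p under 0.05), edgeR or limma. For Van against Con, however, edgeR and limma on log2 (FPKM + 1) called none of the 5 (4 and 3 with an unadjusted p under 0.05), and for VanLip against Con edgeR called 3 and limma none (5 unadjusted). Ighm, the heavy chain gene of IgM, was lower in Van (−0.52) and in VanLip (−0.36) than in Con, of which edgeR called the first only and limma neither. Of 5 dendritic cell genes, Clec9a (−1.12), Xcr1 (−0.85) and Siglech (−0.89) fell in Van against Con, and Clec9a (0.67) and Siglech (0.85) were higher in VanLip than in Van, and Xcr1 was lower in VanLip than in Con (−0.73). Of these, edgeR called only Clec9a for Van against Con, and limma on log2 (FPKM + 1) called none (3 with an unadjusted p under 0.05 for Van against Con). Ngp was the only neutrophil gene called, lower in VanLip than in Con (−1.94), and was not called by edgeR or limma. No gene of the T cell, natural killer, platelet or basophil lists was called in any comparison by DESeq2, edgeR or limma on log2 (FPKM + 1), where unadjusted p-values under 0.05 numbered 1, 2, 1 and 1 for Van against Con with DESeq2.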
